A study of Arabidopsis thaliana with 6 samples.

Results

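The genes described here are the nuclear genes of Arabidopsis thaliana that encode proteins of the plastid ribosome. They were chosen by locus, as 37 listed loci of the 32548 genes in the deposited tables: 24 for proteins of the large subunit (PRPL genes), 9 for proteins of the small subunit (PRPS genes) and 4 for plastid-specific ribosomal proteins, which lack a counterpart in the ribosome of Escherichia coli (PSRP genes). The descriptions in the RefSeq annotation of build TAIR10.1 were used to look up each locus.

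The plastid ribosome descends from the ribosome of the cyanobacterial ancestor of chloroplasts. Its RNAs and part of its proteins are encoded in the plastid genome, and the rest of its proteins are made in the cytosol from nuclear genes and imported. It makes the proteins encoded in the plastid, among them core subunits of both photosystems and the large subunit of Rubisco, and several of its nuclear-encoded proteins are needed for embryos to develop. Neither deposited table holds a plastid gene, so the plastid-encoded ribosomal proteins and RNAs were not analysed here.

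The study compared transcript levels in whole seedlings by RNA sequencing. The groups were a line labelled epl1a/b(-/-) with 2 libraries, and wild type (Col-0, the common laboratory accession) with 2 libraries. A separate pair of Col-0 libraries came from plates kept in the dark under foil, 1 library, and from the light, 1 library. All seedlings were 2 weeks old and were raised on plates of MS (Murashige and Skoog) nutrient medium at 23 °C in days of 16 h light and 8 h dark. EPL1A and EPL1B are the plant counterparts of Enhancer of polycomb, which belongs to NuA4, a complex that acetylates histones. By its title, the series concerns the role of that complex in making chlorophyll and in photosynthesis. The labels give no allele for epl1a/b, no number of plants per library and no length for the dark treatment.

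The libraries held similar numbers of reads in the genotype comparison, 19088784 and 19067459 for epl1a/b and 18796289 and 18821439 for wild type, and the dark and light libraries held 18798088 and 27831231 counts. H4K5Ac, a histone mark, opens the titles of both epl1a/b libraries, while their other labels name total RNA, and every epl1a/b value rests on reading them as RNA libraries. EPL1A (AT1G16690) had normalised counts (reads that the authors scaled to make these 4 libraries comparable) of 93.8 and 79.2 in the libraries labelled epl1a/b, against 282 and 225 in wild type (log2 change -1.54 ± 0.16 SE, limma adjusted p = 2.33e-04). EPL1B (AT1G79020) had 4656 and 4399 in the libraries labelled epl1a/b, against 335 and 351 in wild type, 13.2-fold higher (log2 change 3.72 ± 0.07 SE, limma adjusted p = 7.41e-07), so its transcript level goes against a simple reading of the label. All 4 leaf markers and all 6 root markers were detected in every library, as a whole seedling should give. The summed level of the leaf markers was 22633 and 22497 CPM (counts set to the same library size) in epl1a/b, against 40592 and 37587 CPM in wild type, and that of the root markers was 193 and 198 CPM, against 247 and 257 CPM. In such bulk samples, fewer cells of a type and less RNA per cell cannot be told apart, and the part of cell makeup in the results was not tested.

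The 250 bases before the annotated start are shown first for the PRPL19 locus AT4G17560, whose window holds the most copies of the motif marked, for PRPL11, a large subunit gene with a fall over 4-fold, and for PSRP3, the gene with the smallest fall. They were read from the RefSeq genome of build TAIR10.1, each from 5′ to 3′ on the strand of its gene, from windows free of exons of other genes. Capitals mark TGGGCC and TGGGCT on either strand (GGCCCA and AGCCCA when read on the other strand), short motifs known from promoters of plant ribosomal protein genes. PRPL11 lies downstream of chr1:11955406-11955655 on the plus strand, the PRPL19 locus of chr4:9779974-9780223 on the plus strand and PSRP3 of chr1:25758412-25758661 on the minus strand.
PRPL11: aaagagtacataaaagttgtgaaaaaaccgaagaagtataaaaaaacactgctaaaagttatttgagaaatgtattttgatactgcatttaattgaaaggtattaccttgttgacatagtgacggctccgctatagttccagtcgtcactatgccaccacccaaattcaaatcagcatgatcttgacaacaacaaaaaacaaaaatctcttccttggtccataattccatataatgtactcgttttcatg
PRPL19 (AT4G17560): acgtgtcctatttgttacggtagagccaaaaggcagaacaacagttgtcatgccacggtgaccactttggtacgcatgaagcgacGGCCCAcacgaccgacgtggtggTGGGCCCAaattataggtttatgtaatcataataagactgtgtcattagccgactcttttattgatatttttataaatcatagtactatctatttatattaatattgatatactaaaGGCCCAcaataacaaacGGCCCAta
PSRP3: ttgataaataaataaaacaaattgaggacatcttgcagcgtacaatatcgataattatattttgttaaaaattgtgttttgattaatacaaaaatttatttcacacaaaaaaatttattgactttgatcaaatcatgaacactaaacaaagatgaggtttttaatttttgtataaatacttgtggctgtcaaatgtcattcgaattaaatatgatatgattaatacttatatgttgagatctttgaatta

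In the libraries labelled epl1a/b, every plastid ribosomal protein gene that could be tested had a lower transcript level than in wild type. Of the 37 loci, 36 were tested, 36 fell and 0 rose, with a median log2 change of -2.01, which is 4.03-fold lower. Over all 23658 genes tested the median log2 change was 0.02, and 24.1% of genes were called lower and 22.5% higher (limma with Benjamini-Hochberg adjustment over all genes, called under 0.05). With equal library totals instead of the authors' scaling, 29.4% of all calls were lower, against 51.7% here, and all 36 genes were still called lower. A fall of at least 2-fold was found for 35 of the 36, against 7.99% of all genes, and a fall of at least 4-fold for 20, against 1.97% of all genes. The median lies at the 4-fold limit, and with equal library totals 6 genes fell by at least 4-fold, against 1.38% of all genes, while 35 fell by at least 2-fold, against 5.65%. Both epl1a/b libraries lay below both wild type libraries for 36 of 36, as they did for 37.6% of all genes. The log2 changes ran from -2.55 for PRPL15 to -0.79 for PSRP3 with an SD of 0.33, beside an SD of 0.21 for cytosolic ribosomal proteins, 0.43 for photosystem subunits and 0.97 for all genes. Reads of these genes made up 0.322% and 0.32% of all reads in epl1a/b, against 1.05% and 1.01% in wild type. All 36 kept their direction and their call in each of 12 other ways of processing the values. No label says that the 2 libraries of a genotype were grown separately, so the p-values reflect only how far these libraries differ, and that spread may be technical.

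**Figure D1:**
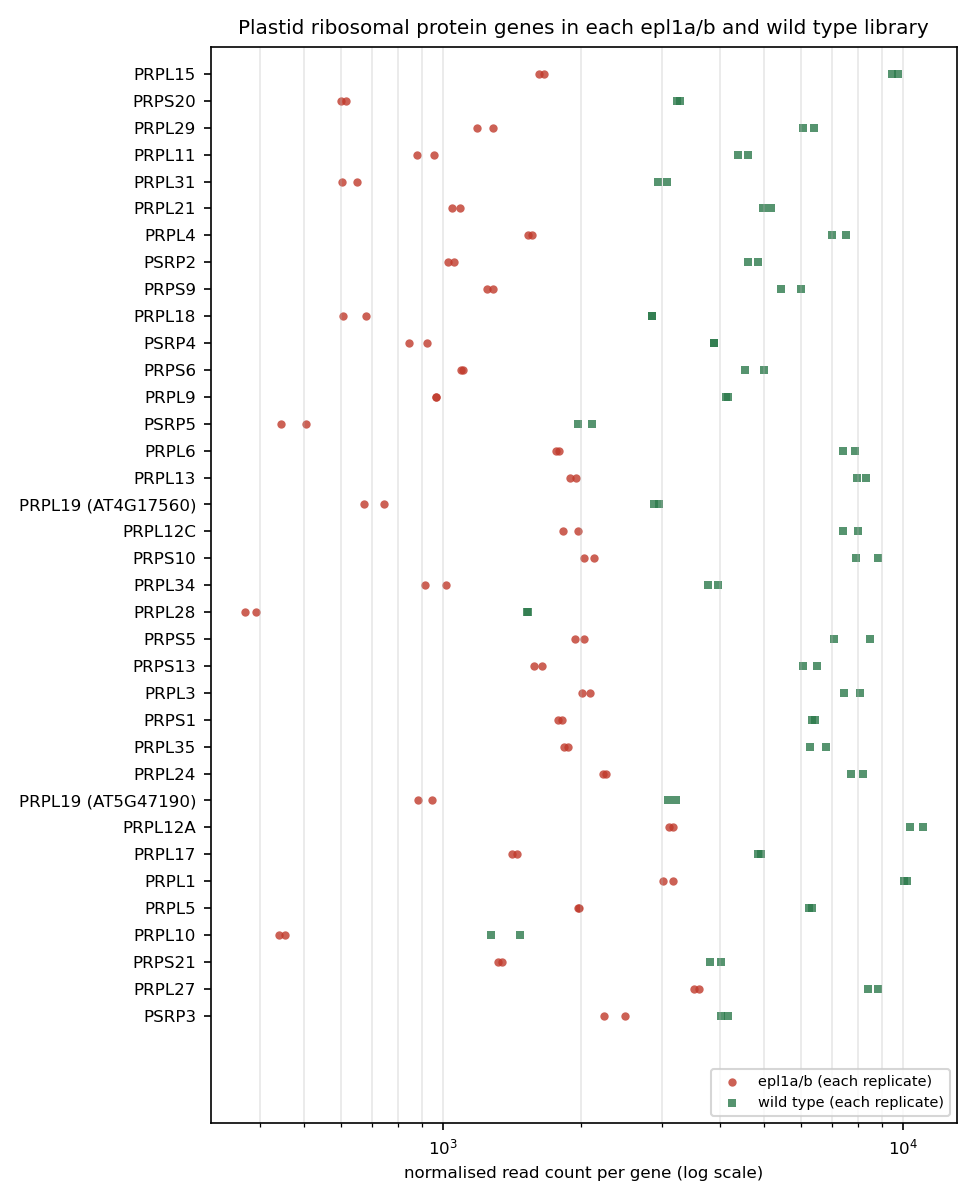
Normalised read count (log scale) of the 36 plastid ribosomal protein genes with reads, for each epl1a/b replicate (circles) and each wild type replicate (squares), sorted by fold change. The epl1a/b points lie left of the wild type points for every gene, widest apart for PRPL15 and closest for PSRP3.

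The large subunit was covered by 24 loci, and all 24 fell, with a median log2 change of -2.01 and a range from -2.55 to -1.27. PRPL15 (AT3G25920), a core protein of the large subunit that joins during its assembly, had normalised counts of 1657 and 1617 in epl1a/b, against 9773 and 9464 in wild type. This was the strongest fall of all 36 genes, 5.87-fold (limma adjusted p = 1.59e-06, log2 change -2.55 ± 0.07 SE), and the groups were far apart. Another gene model overlaps 6.6% of the exon bases of PRPL15. PRPL29 (AT5G65220), whose bacterial counterpart sits at the exit of the tunnel through which the new protein leaves, had 1186 and 1285 in epl1a/b, against 6394 and 6059 in wild type. It was 5.04-fold lower (log2 change -2.33 ± 0.08 SE). At the other end, PRPL27 (AT5G40950), whose bacterial counterpart reaches to the site of peptide bond formation, had 3515 and 3600 in epl1a/b, against 8814 and 8397 in wild type. Its fall of 2.42-fold was the smallest in the large subunit, with the groups still well separated (log2 change -1.27 ± 0.07 SE, limma adjusted p = 8.79e-06).

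Proteins of the stalk, the flexible arm of the large subunit that recruits translation factors, were among those that fell. PRPL11 (AT1G32990), at the base of the stalk, averaged 918 ± 52.6 in epl1a/b and 4494 ± 170 normalised counts in wild type (SD, n = 2 each), a log2 change of -2.29. PRPL10 (AT5G13510), which anchors the PRPL12 proteins, averaged 448 ± 10.5 in epl1a/b and 1371 ± 138 in wild type (SD, n = 2 each), a log2 change of -1.61. The value of PRPL10 is uncertain, since 69.2% of its exon bases overlap another gene model, as is that of PRPL28 with 68.0%. Of the PRPL12 proteins, which form the stalk itself, PRPL12A (AT3G27830) had 3161 and 3108 in epl1a/b, against 11056 and 10375 in wild type. PRPL12C (AT3G27850) had 1824 and 1970 in epl1a/b, against 7970 and 7399 in wild type. Both fell, with log2 changes of -1.77 for A and -2.02 for C. The third locus, PRPL12B (AT3G27840), had 3 reads in 1 epl1a/b library and 0 in the other 5 libraries.

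The stalk on the other side of the subunit holds PRPL1 (AT3G63490), a mover of spent tRNA in bacteria, which averaged 3086 ± 99.3 in epl1a/b and 10141 ± 110 in wild type (SD, n = 2 each). Its log2 change was -1.72, and 11.7% of its exon bases overlap another gene model. Proteins that bind the ribosomal RNA early in bacterial assembly fell as well, with log2 changes of -1.92 for PRPL3, -2.23 for PRPL4 and -1.82 for PRPL24. PRPL4 also lines the exit tunnel in bacteria. PRPL5 and PRPL18, whose bacterial counterparts bind the smaller ribosomal RNA of the large subunit, had log2 changes of -1.68 and -2.14. Of the exon bases of PRPL18, 24.1% overlap another gene model. The other large subunit genes lay between PRPL17, with a log2 change of -1.77, and PRPL31, with -2.26.

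The small subunit, which holds the mRNA and reads the codons, had 9 listed loci, of which 8 could be tested. All 8 fell, with a median log2 change of -1.98 and a range from -2.41 to -1.56. PRPS20 (AT3G15190), an early binder of the ribosomal RNA in bacteria, had 602 and 617 in epl1a/b, against 3272 and 3228 in wild type. It was 5.32-fold lower (limma adjusted p = 1.59e-06, log2 change -2.41 ± 0.07 SE), the second strongest fall of the 36, although 21.6% of its exon bases overlap another gene model. PRPS21 (AT3G27160) had 1315 and 1346 in epl1a/b, against 4018 and 3812 in wild type. Its fall of 2.94-fold was the smallest in the small subunit and left the groups apart (log2 change -1.56 ± 0.07 SE, limma adjusted p = 3.53e-06). PRPS1, which binds mRNA, had a log2 change of -1.83, and PRPS5, at the mRNA entry in bacteria, had -1.96. PRPS5 had the widest spread of the small subunit genes, with 7769 ± 998 in wild type (SD, n = 2).

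PRPS17 (AT1G79850, chromosome 1, 30041243 to 30041952, minus strand) is listed at 0 in all 6 libraries. All of its exon bases, 100%, lie inside models of other genes in the annotation used here. The same holds for 368 protein-coding genes, of which 346, or 94.0%, are at 0 in all 6 libraries, against 2965 of the other 27076, or 11.0%. No level can be given for PRPS17.

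Of the plastid-specific ribosomal proteins, the 4 listed loci all fell, with a median log2 change of -2.12. PSRP2 (AT3G52150), a protein with RNA-binding domains, had 1026 and 1060 in epl1a/b, against 4834 and 4599 in wild type. PSRP4 (AT2G38140), of the small subunit, had 846 and 924 in epl1a/b, against 3893 and 3891 in wild type. PSRP5 (AT3G56910), of the large subunit, had 504 and 445 in epl1a/b, against 2109 and 1969 in wild type. These 3 changed alike, by -2.18, -2.14 and -2.10 on the log2 scale, though 36.4% of the exon bases of PSRP5 overlap another gene model. PSRP3 (AT1G68590), also of the small subunit and shared with cyanobacteria, had 2488 and 2245 in epl1a/b, against 4172 and 4030 in wild type. Its fall of 1.73-fold was the smallest of all 36 (log2 change -0.79 ± 0.08 SE, limma adjusted p = 1.53e-04), with 17.2% of its exon bases overlapping another gene model. Whether its change differs from that of the other plastid-specific proteins was not tested.

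**Figure D2:**
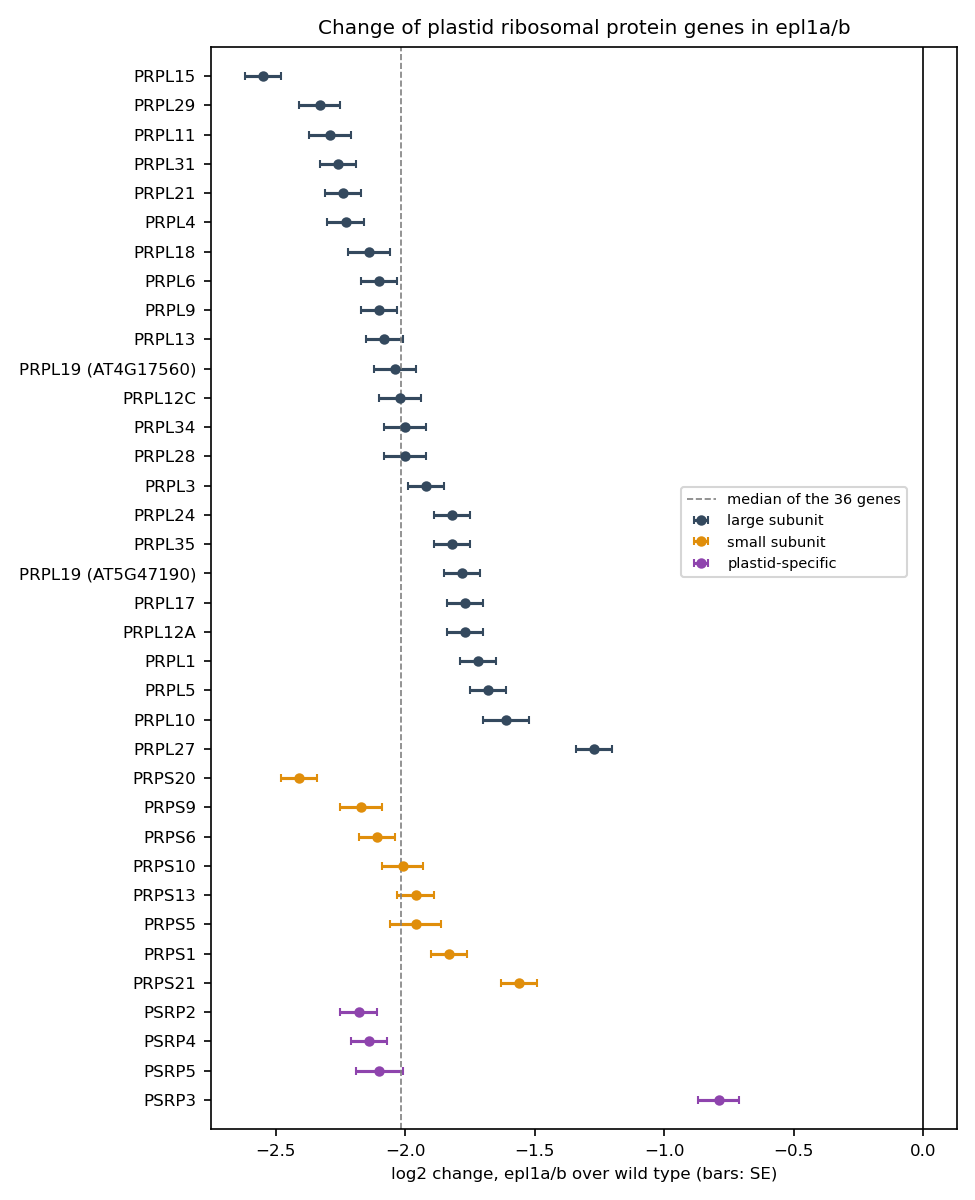
Log2 change of each plastid ribosomal protein gene, epl1a/b over wild type, with its SE, grouped by large subunit, small subunit and plastid-specific proteins, and the median of the 36 genes as a dashed line. Most genes lie between -1.7 and -2.3, and PRPL27 at -1.27 and PSRP3 at -0.79 lie nearest to 0.

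Between the log2 change of a gene and its log2 normalised count in wild type, Pearson's r was 0.01 and Spearman's rho 0.16 across the 36 genes, which share libraries and are not independent replicates. The same wild type values enter both quantities, so r and rho cannot show whether the change depends on the level. The 9 genes that RefSeq also names as embryo defective (PRPL1, PRPL4, PRPL6, PRPL10, PRPL13, PRPL18, PRPL31, PRPS5 and PRPS13) had a median log2 change of -2.08, and the other 27 tested genes had -2.01. Over the 23 genes whose exons overlap other models, or share 50-base words with other transcripts, in at most 5% of bases or words, 23 fell with a median of -2.08.

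Levels were compared between genes per kb of exon, scaled to the same total within each library (as TPM is), over those 23 genes. Their median level was 124 in epl1a/b and 440 in wild type. PRPL27 had the highest level in both genotypes, with 382 and 394 in epl1a/b and 779 and 758 in wild type. The PRPL19 locus AT4G17560 had the lowest in both, with 62.7 and 57.2 in epl1a/b and 201 and 201 in wild type. The wild type levels spanned 3.82-fold. After PRPL27 came PRPL35, PRPL29, PRPL6 and PRPL3, each with a range over the wild type libraries that met that of the next of these. Ranges met for 14 of the 22 neighbouring pairs in all. The order was much alike in both genotypes (r of 0.92 and rho of 0.93 across the 23 genes). PRPL29 moved the furthest among the top 5, standing at rank 7 in epl1a/b and rank 3 in wild type. Over all 23 genes, PRPL5 and PRPL17 moved further, standing at ranks 4 and 9 in epl1a/b and ranks 9 and 14 in wild type.

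**Figure D3:**
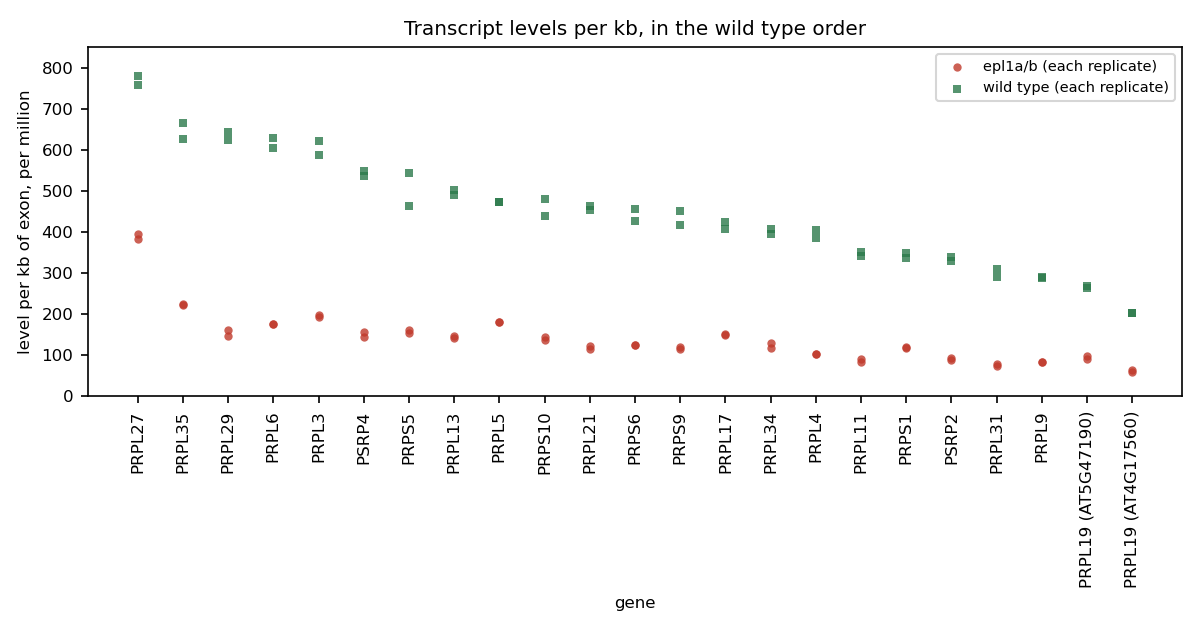
Level per kb of exon, scaled within a library as TPM is, for the 23 plastid ribosomal protein genes whose gene models stand apart from others, in the wild type order, with epl1a/b replicates as circles and wild type replicates as squares. The epl1a/b levels lie below the wild type levels throughout, with PRPL27 highest in both.

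PRPL19, a protein at the face where the subunits meet, is encoded by a pair of loci, so their balance could be followed. The first (AT5G47190) had normalised counts of 946 and 885 in epl1a/b, against 3217 and 3091 in wild type. The second (AT4G17560) had 746 and 675 in epl1a/b, against 2946 and 2883 in wild type. Both fell, with log2 changes of -1.78 ± 0.07 for the first and -2.04 ± 0.08 for the second (SE). The first locus gave 60.7% and 61.5% of their summed level per kb in epl1a/b, against 57.1% and 56.6% in wild type. For PRPL12, the A locus gave 55.4% and 53.0% of the level of A and C in epl1a/b, against 49.8% and 50.1% in wild type. In both pairs the epl1a/b shares lay above the wild type shares with no overlap, but 2 libraries against 2 cannot reach a p below 0.333 in an exact two-sided permutation test. The PRPL12 loci also share sequence, with 21.5% and 24.7% of their 50-base words found in another transcript, so reads could be split between them.

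The upstream windows printed above differ in their motifs. TGGGCC or TGGGCT, on either strand, occurred in the windows of 14 of the 37 loci, or 37.8%, against 19.2% of 27443 protein-coding genes and 65.7% of cytosolic ribosomal protein genes. The shares were 50.0% for genes of partners of the plastid ribosome (described below) and 21.7% for photosystem subunits. The PRPL19 locus shown (AT4G17560) had 5 copies, the most of the 37, of which 2 overlap as TGGGCCCA. The windows of PRPL11 and PSRP3 held none, and their log2 changes were -2.29 and -0.79. The 13 tested genes with either motif had a median log2 change of -2.04, and the 23 without had -2.0. Of other motifs searched on both strands, AAACCCTA occurred in 10.8% of the 37 windows, against 4.5% of all, and GATAAG in 21.6%, against 12.3%. CACGTG, the core bound by many light-signalling factors, occurred in 8.1%, against 6.5%, and CCAATC in 10.8%, against 10.2%. Exon bases of another gene lay in 21 of the 37 windows, and a match is not evidence of binding.

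Other genes of plastid translation and of the photosystems also fell in epl1a/b. Of 18 tested partners of the plastid ribosome (translation factors, ribosome-associated proteins and the like), 18 fell, against 24.1% of all genes. Their median log2 change was -1.32. These partners include plastid-specific ribosomal proteins outside the listed loci. PSRP1 (AT5G24490), related to bacterial factors that put ribosomes at rest, had 464 and 412 in epl1a/b, against 3253 and 2770 in wild type (log2 change -2.78). APG3 (AT3G62910), a plastid release factor, had 127 and 154 in epl1a/b, against 860 and 807 in wild type (log2 change -2.56). SVR9 (AT2G24060), a plastid initiation factor, had 324 and 331, against 1536 and 1441 in wild type (log2 change -2.18). Other gene models overlap 36.9% of the exon bases of SVR9 and 12.2% of those of PSRP1. Without epl1a/b replicate 1 or without epl1a/b replicate 2, 17 of the 18 were called lower. Of 23 nuclear genes for photosystem subunits, 23 fell, against the same 24.1% of all genes, with a median of -1.39. PSAD2 of photosystem I had the strongest fall of these, with 4349 and 3491 in epl1a/b, against 29062 and 27430 in wild type (log2 change -2.86).

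Ribosomal proteins of the other compartments had medians near 0. Of 69 tested cytosolic ribosomal protein genes, 9 fell, 6 rose and 54 were not called, beside 24.1% lower and 22.5% higher over all genes. Their median log2 change was -0.02. The strongest change was that of AT3G13580, with 1161 and 1138 in epl1a/b, against 2064 and 1790 in wild type (log2 change -0.74). AT4G36130 had the largest rise, with 2292 and 2405 in epl1a/b, against 1971 and 1786 in wild type (log2 change 0.32). These counts depend on the scaling: with equal library totals 2 fell and 37 rose. That scaling called 3672 of all 23658 genes lower and 8822 higher, so the shares above do not apply to it. The edgeR test called 8 lower and 7 higher, and DESeq2 8 lower and 6 higher. Leaving out any 1 library gave fewer calls over all genes, both lower and higher. Without epl1a/b replicate 1 limma called 5 lower and 0 higher (5 higher at an unadjusted p under 0.05), without epl1a/b replicate 2 it called 3 and 0 (3 higher unadjusted), and without wild type replicate 2 it called 10 and 0 (4 higher unadjusted). Of 8 tested mitochondrial ribosomal protein genes, 1 fell and 1 rose, with a median of 0.02, and the rise (AT3G59650, with 296 and 274 in epl1a/b, against 227 and 201 in wild type) was lost in the same 3 cases and with DESeq2. Equal library totals moved the median of all genes to 0.26 and that of the plastid ribosomal protein genes to -1.77. The distance between them was -2.03 in both scalings. A change of scaling shifts most genes by nearly the same amount, so that distance could hardly differ.

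**Figure D4:**
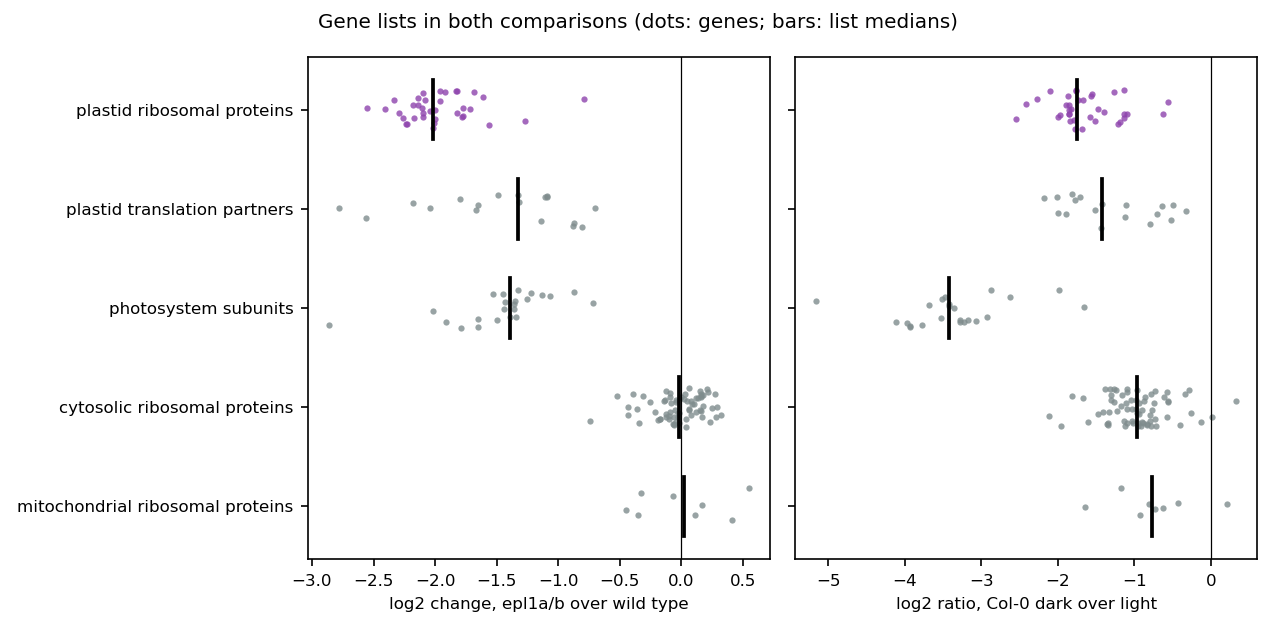
Log2 change in epl1a/b over wild type (left) and log2 ratio of Col-0 dark over light (right) for each gene (dots) of the plastid ribosomal proteins, their translation partners, the photosystem subunits and the cytosolic and mitochondrial ribosomal proteins, with list medians as bars. In the left panel the plastid ribosomal protein median is -2.01 and the cytosolic one -0.02, and in the right panel they are -1.75 and -0.96.

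The dark and light libraries showed the same genes in another condition, with 1 library each, so the ratios have no replicate check and no test was made. Of the 36 genes with counts, 34 were at least 2-fold lower in the dark and 0 at least 2-fold higher, against 19.4% and 15.7% of 21128 genes counted. Their median log2 ratio was -1.75, or 3.35-fold lower in the dark, beside -0.02 for all genes. The genes took 0.528% of all counts in the dark and 1.32% in the light.

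PSRP3 had 44.4 CPM in the dark, against 260 CPM in the light, a ratio 5.84-fold lower (log2 ratio -2.55, 95% counting interval -2.65 to -2.45). PRPL27 had 80.0 CPM in the dark, against 430 CPM in the light, 5.37-fold lower. These 2 genes, which had the smallest falls in epl1a/b, thus had the lowest dark to light ratios. The least affected genes were PRPL12C, with 382 CPM in the dark, against 562 CPM in the light (log2 ratio -0.56, interval -0.60 to -0.52), and PRPL28, with 70.9 CPM, against 109 CPM (log2 ratio -0.62). Both values are uncertain, since PRPL12C shares 24.7% of its 50-base words with another transcript, and 68.0% of the exon bases of PRPL28 overlap another gene model. Of the 23 genes whose models stand apart, 23 were at least 2-fold lower in the dark. PRPL15, with the strongest fall in epl1a/b, had 227 CPM in the dark, against 676 CPM in the light (log2 ratio -1.58). Intervals are exact Clopper-Pearson intervals and cover counting error only.

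By role, the large subunit genes had a median log2 ratio of -1.71, the 8 small subunit genes -1.61 and the 4 plastid-specific genes -1.89. PRPL21 was next to PRPL27 in the large subunit, with 103 CPM in the dark, against 500 CPM in the light, and PRPS1 was the lowest of the small subunit, with 139 CPM, against 596 CPM. The pairs of loci differed. The first PRPL19 locus had 80.0 CPM in the dark, against 286 CPM in the light, and the second 86.8 CPM, against 190 CPM, so the share of the first by level per kb was 52.8% in the dark and 64.7% in the light. PRPL12A had 125 CPM in the dark, against 451 CPM in the light, and its share of the level of A and C was 19.0% in the dark and 36.5% in the light. As above, the PRPL12 loci share sequence, so reads could be split between them.

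**Figure D5:**
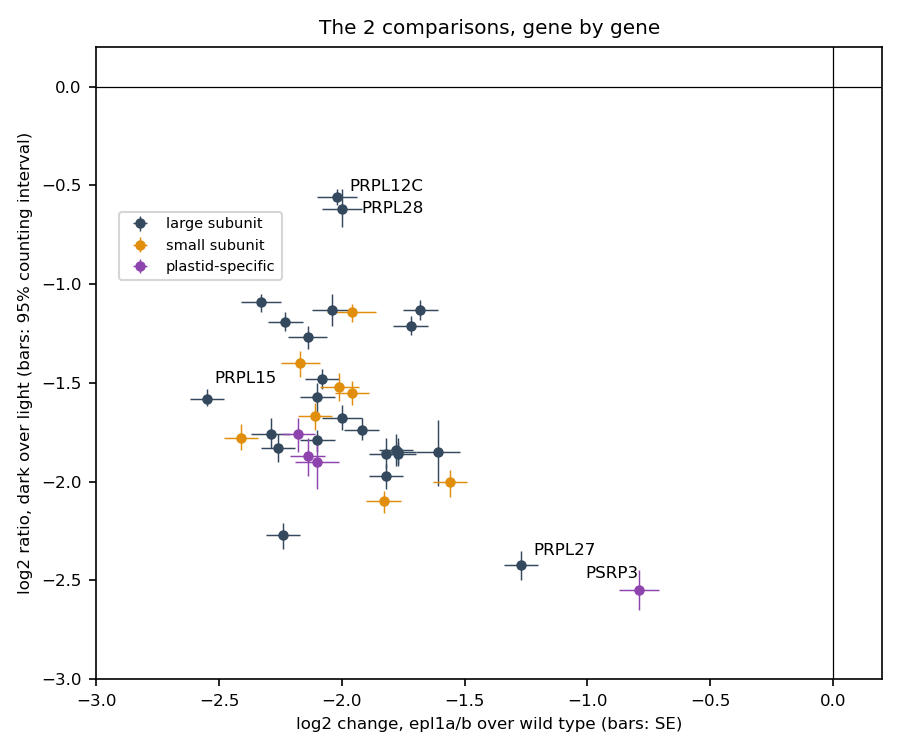
Log2 change in epl1a/b over wild type (x axis, bars are SE) and log2 ratio of dark over light (y axis, bars are 95% counting intervals) for the 36 plastid ribosomal protein genes, coloured by large subunit, small subunit and plastid-specific proteins. All genes lie below 0 on both axes, and PSRP3 and PRPL27 lie apart at the lower right.

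Across the 36 genes the change in epl1a/b and the dark to light ratio had a Pearson's r of -0.40 and Spearman's rho of -0.29, given as a description, since genes of the same libraries are not independent. Without PSRP3 and PRPL27 they were -0.10 and -0.16 over 34 genes. The dark library also stood apart in other transcripts. All 13 seed storage and oil body genes were at least 2-fold higher in it, with a summed level of 7373 CPM in the dark and 29.5 CPM in the light, where CRU2 was at 0. In the genotype table they summed to 5.34 and 4.09 CPM in epl1a/b, against 1.38 and 1.49 CPM in wild type, with CRC, CRU2, SESA2, SESA3, SESA5 and OLEO2 at 0 in all 4 libraries. The leaf markers summed to 12555 CPM in the dark and 55445 CPM in the light, and the root markers to 300 CPM and 168 CPM. TMM factors were also taken without the seed storage and oil body genes. The median log2 ratio of the plastid ribosomal protein genes was then -1.75 as well, with 34 at least 2-fold lower. The log2 ratios of the 13 genes taken out ran from 4.4 to 9.37, and TMM leaves out extreme ratios when it sets its factors. This setting could therefore hardly change the median, and it does not check the part of those genes. The part of these other differences in the dark to light ratios was not tested. In the dark the photosystem subunits had a median log2 ratio of -3.42, the translation partners -1.42, the cytosolic ribosomal proteins -0.96 and the mitochondrial ribosomal proteins -0.77. Of the cytosolic ones, 32 of 69 were at least 2-fold lower, against 19.4% of all genes counted.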

How the data were processed

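Total RNA of seedlings was sequenced, and the submitters' processing notes name HISAT2, featureCounts, edgeR and the TAIR10 build. Versions and the strand setting are not given in the sources used here, and the labels name single-end 50 bp and paired-end 150 bp reads without tying them to libraries. The genotype values were deposited by the authors as a gene-level signal, normalised counts per the file headers. They match edgeR's library-size equalisation and could be inverted to whole reads for 32548 of 32548 genes with a tolerance of 1e-06, which gave the depths. The dark and light values were deposited as raw counts. No other column of per-sample values was left unmapped.

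Genotypes were compared with limma 3.58.1 (R 4.3.3; eBayes trend and robust) on log2(value + 1) of the 23658 genes at 1 or more in at least 2 libraries. Fold changes are on that scale, and the call threshold was 0.05 after Benjamini-Hochberg adjustment. The alternatives included edgeR 4.0.16 quasi-likelihood and DESeq2 1.42.0 on the recovered reads. The limma, edgeR and DESeq2 fits of the genotypes were tried on simulated counts, and the other steps were not. Dark and light counts were scaled to CPM with edgeR's TMM factors, with a prior count of 2 and at least 10 counts in total. CPM and per-kb levels are not compared across the tables, which were normalised separately. Counting intervals and depths cover counting error only.

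The members and gene lists were chosen with earlier results of these data known. All members could be named, with values of each library for the 3 largest and 3 smallest falls, the highest and lowest level per kb, the PRPL19 and PRPL12 loci and the plastid-specific proteins. Other members are given as means or changes. Up to 3 called genes of each other list, and those against its majority, could be named. Listed loci below the filter and so without a test were PRPS17, RABE1B, PRPL12B, AT1G23290 and AT5G14290, and among the 13 seed storage and oil body markers 5 were tested.

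The 2 libraries of a genotype differed beyond sampling noise, with a chi-square per degree of freedom of 7.47 in epl1a/b and 7.17 in wild type, and were kept as 2 samples. One upstream sequence is not reported here.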

Additional observations from a re-analysis of the deposited data

How the results depend on the processing

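Under 12 alternatives (another pseudocount, no filter or a stricter one, equal library totals, each library left out, a replicate block, a crossed pairing, edgeR, and DESeq2), 432 of 432 values of the 36 tested genes kept their direction and call, with a highest adjusted p of 0.0129. The crossed pairing, and the restriction to genes whose models stand apart, were chosen after seeing the data.

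Equal library totals moved the median change of the plastid ribosomal protein genes to -1.77 and the counts over all genes to 3672 lower and 8822 higher, so 29.4% of calls were lower, against 51.7%. The plastid ribosomal protein genes at least 4-fold lower numbered 6 there, 17 to 22 with 1 library left out, and 18 to 20 in the other alternatives. There, 2 cytosolic ribosomal proteins were lower and 37 higher, and 4 mitochondrial ones were higher. Leaving out 1 library gave 2660 to 3689 genes higher over all genes, 3 to 10 cytosolic ribosomal proteins lower and 0 to 6 higher, and 0 to 1 mitochondrial ones higher, and DESeq2 gave 0 for these (1 at an unadjusted p under 0.05). Where an arm had 1 library left, it was assumed to vary like the other arm. Without TMM the median dark to light log2 ratio was -1.52, with 28 genes at least 2-fold lower in the dark. All 36 ratios moved by more than their counting interval. The share of all genes at least 2-fold lower was not worked out without TMM. The 19.4% given above holds with TMM only, so the 28 cannot be set against it. The causes were not tested beyond what each setting changes.

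The deviations of same-numbered libraries had an r of -0.14 across 23658 genes, and of -0.23 across the 20397 with a mean of at least 10. With 2 libraries per genotype, this cannot decide whether the numbers pair the samples. With the replicate block 36 plastid ribosomal protein genes were lower, and 5099 genes were lower and 4578 higher over all. With the numbers crossed, 5585 were lower and 5353 higher. The edgeR test called 5497 lower and 5290 higher, and DESeq2 4378 and 3805. PRPL12B, with 3 reads in all, and PRPS17, with 0, allow no comparison, and the cause was not tested.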
